A study of Homo sapiens with 12 samples.

Results

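Ribosome biogenesis and RNA polymerase I transcription are described here through 40 genes, chosen because their symbol stands in a list of nucleolar processing factors and polymerase I machinery, out of 58735 genes listed in the deposited table of read counts. All 40 passed the filter on low counts and were among the 20821 genes tested.

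Ribosome production begins in the nucleolus, where RNA polymerase I, recruited by UBTF, the SL1 complex and RRN3, transcribes a long precursor RNA from the repeated ribosomal genes. Small nucleolar ribonucleoproteins (snoRNPs) of the box C/D and box H/ACA classes methylate and pseudouridylate that precursor, and large sets of assembly factors fold, cleave and pack it with ribosomal proteins into the small and the large subunit. Erythroid precursors carry a heavy load of protein synthesis, and inherited defects of ribosomal proteins are the main known cause of Diamond-Blackfan anemia.

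RNA was sequenced from K562, an established human erythroleukemia line whose cells express the fusion kinase BCR-ABL1, in a study of tyrosine kinase inhibitors and erythropoiesis in Diamond-Blackfan anemia syndrome. The 12 libraries fall into 4 groups of 3, and all 12 received either nilotinib, an inhibitor of BCR-ABL1, at 0.1 μM or its vehicle DMSO at 0.1%. The mock DMSO group received vehicle and no hemin, the mock nilotinib group nilotinib and no hemin, the hemin DMSO group vehicle and then 50 μM hemin for 24 h, and the hemin nilotinib group nilotinib and then the same hemin. Hemin, an oxidised form of heme, is used to drive K562 toward the red cell fate. The study's methods give 24 h of pretreatment with inhibitor or vehicle and collection at 0 and 24 h, and the mock groups are labelled as 0 h. Where 0 h is the addition of hemin, the hemin groups were also 24 h longer in culture than the mock groups. In that case the effects of hemin and of time cannot be told apart in comparisons of hemin with mock. The same holds for the difference between the nilotinib effects with and without hemin. K562 is a leukemia line that depends on the kinase nilotinib inhibits, which limits it as a model of normal erythroid precursors.

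The libraries held between 40418880 and 50506990 counts in mock DMSO, 33457078 to 36893606 in mock nilotinib, 36153691 to 41860655 in hemin DMSO and 35333809 to 40874699 in hemin nilotinib. Levels are given as CPM, a gene's counts over all counts in tested genes on the usual fixed scale, after TMM scaling, which sets the bulk of genes equal between libraries. A fold change is a log2 ratio between 2 groups with its standard error (SE), fitted with 3 libraries per group. A member is said to have risen or fallen where edgeR's quasi-likelihood test gave it an adjusted p (Benjamini-Hochberg) under 0.05 over all 20821 genes. Those p-values measure only the spread between these libraries, which may be technical. The study's methods call them biological replicates and do not say whether these were separate cultures. In these bulk samples, fewer cells with an active nucleolus and less RNA per cell cannot be told apart.

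The label K562 was checked against marker genes. All 8 genes listed for K562 identity were detected, with summed levels of 1415, 1831 and 2221 CPM in mock DMSO, 6215, 7435 and 6589 in mock nilotinib, 1013, 1203 and 1073 in hemin DMSO and 7060, 4100 and 4397 in hemin nilotinib. The most abundant of them was the transferrin receptor TFRC, at 279 to 3006 CPM over the 12 libraries. Of 10 lymphoid markers, 7 stayed under 1 CPM in every library, among them CD3E, CD4, CD8A and CD79A, and the most abundant was PTPRC at 31.6 to 97.3 CPM. Of 9 monocyte and granulocyte markers, 5 stayed under 1 CPM in every library, MPO and ELANE included, and the most abundant was LYZ at 1.70 to 37.2 CPM. Of 7 megakaryocyte markers, 4 stayed under 1 CPM in every library, among them PF4 and VWF, and the most abundant was ITGA2B at 7.24 to 69.6 CPM. Of 7 stromal and epithelial markers, only 1 stayed under 1 CPM in every library, CDH5, which had no count in any. All the others exceeded 1 CPM in at least 1 library, and the most abundant was the keratin KRT8, at 72.4 to 732 CPM.

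The summed marker levels other than those of K562 identity also differed between the groups. The lymphoid sum was 115, 111 and 106 CPM in mock DMSO, 50.95, 61.6 and 52.5 in mock nilotinib, 68.3, 108 and 63.6 in hemin DMSO and 33.4, 47.8 and 42.8 in hemin nilotinib. The monocyte and granulocyte sum was 43.2, 38.0 and 31.5 CPM in mock DMSO, 3.93, 5.08 and 4.44 in mock nilotinib, 33.5, 49.7 and 34.9 in hemin DMSO and 2.82, 4.09 and 4.42 in hemin nilotinib. The megakaryocyte sum was 65.8, 60.5 and 39.9 CPM in mock DMSO, 26.1, 31.6 and 36.5 in mock nilotinib, 32.5, 71.4 and 37.6 in hemin DMSO and 15.2, 17.5 and 23.2 in hemin nilotinib. ITGA2B fell under nilotinib by 1.65 without hemin and by 2.09 with it, while ITGB3, another megakaryocyte marker, rose under nilotinib by 2.49 without hemin and by 2.12 with it. Of the 3 megakaryocyte markers tested, 1 rose and 1 fell under nilotinib without hemin, and 2 rose and 1 fell with hemin. The lymphoid and the monocyte and granulocyte sums were lower in every nilotinib library than in every vehicle library. The stromal and epithelial sum was 618, 627 and 560 CPM in mock DMSO, 264, 354 and 382 in mock nilotinib, 909, 1047 and 734 in hemin DMSO and 215, 295 and 302 in hemin nilotinib. The part of the marker levels in the results on ribosome biogenesis was not tested.

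Libraries stood apart inside the nilotinib groups. Hemin nilotinib replicate 1 was the highest library of its group for 34 of the 40 members, beside 37.2% of all genes tested. Its level over the mean of the other 2 libraries had a median of 1.67 over the members. Over all genes tested that ratio had a median of 0.955, and over the 79 cytosolic ribosomal protein genes a median of 1.07. The ratio was above 1.5 for 23 of the 40 members and for 11.0% of all genes tested, and it ran from 0.677 for POLR1D to 3.33 for RRS1. Mock nilotinib replicate 1 was the highest of its group for 29 members, beside 39.0% of all genes tested. Its median ratio was 1.20 against 0.997 over all genes tested. In mock DMSO, replicate 3 was the highest library for 38 of the 40 members, beside 37.8% of all genes tested, and replicate 1 the lowest for 34. The counts over the 40 members that include hemin nilotinib replicate 1, and several values, are therefore given with and without it.

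**Figure D1:**
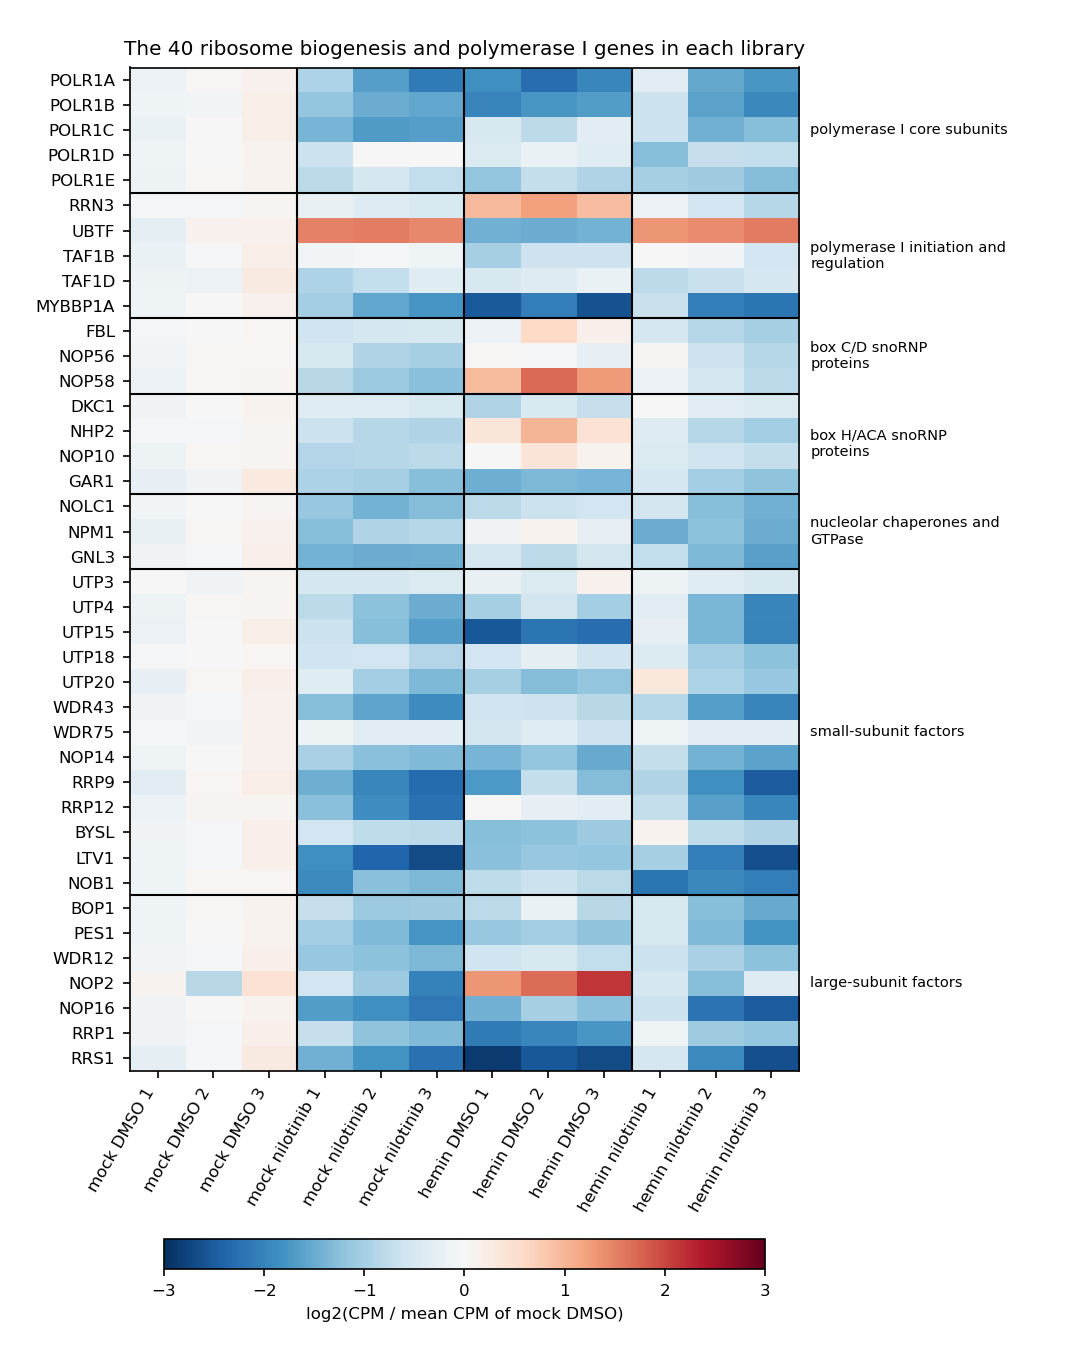
Heat map of the 40 members by role (vertical axis) in the 12 libraries (horizontal axis), each cell the log2 ratio of a library's CPM to the mean CPM of mock DMSO. Most members are blue outside mock DMSO, UBTF is red in the 6 nilotinib libraries, and hemin nilotinib replicate 1 is paler than replicates 2 and 3.

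The 40 members took 0.399, 0.421 and 0.448% of all counts in the mock DMSO libraries, 0.263, 0.255 and 0.247% in mock nilotinib, 0.265, 0.304 and 0.280% in hemin DMSO, and 0.272, 0.230 and 0.217% in hemin nilotinib. Every library of the other groups was below every mock DMSO library. Levels per gene length spread widely, from 0.227 CPM per kilobase for NOP2 to 300.04 for NPM1 in mock DMSO, with a median of 15.6. After NPM1, the highest mock DMSO levels per length were those of the methyltransferase FBL, at 106 CPM per kilobase, and of the snoRNP protein NOP10, at 90.3 CPM per kilobase. The median member's log2 ratio to mock DMSO was -0.85, -1.12 and -1.30 in the mock nilotinib libraries, -0.81, -0.64 and -0.78 in hemin DMSO, and -0.49, -1.16 and -1.26 in hemin nilotinib.

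The members vary in features that did not enter their choice. They lie on 19 chromosomes, with 7 of them on chromosome 2, and range from 1 exon in UTP3 and RRS1 to 62 exon blocks in UTP20. In GENCODE 29, 7 members hold small nucleolar RNA genes within their bounds on the same strand (TAF1D, GNL3, NOP56, NOP58, WDR43, DKC1 and POLR1C), 29 such RNAs in all. TAF1D holds 8 and GNL3 holds 6. Overlap with other genes was largest for NOP2, where 54.4% of the exon length is also that of AC006064.6 on the same strand and 40.1% of its 150-base words occur in transcripts of that gene. LTV1 overlaps AL049844.3 over 34.8% of its exon length and shares 21.3% of its words with it. Same-strand overlap also exceeded 10% for RRS1, at 11.4% with AC009879.2 and 2.89% of its words, and for TAF1D, at 11.2%. RRN3 overlaps no gene but shares 10.7% of its words with AC009093.9. The counts of these 5 members are uncertain to that extent. Overlap with a gene on the opposite strand exceeded 10% of exon length for 5 members: NHP2 (27.4%), NOB1 (20.3%), NOP16 (20.0%), POLR1C (18.2%) and NOP14 (17.1%). Whether the libraries kept the strand is not given in the sources used here, so for these 5 a member and its antisense partner cannot be told apart in the overlap.

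Promoters, taken from RefSeq on GRCh38.p14 as 250 bases before to 50 after the annotated start, were available for 34 of the 40 members, and BOP1, NOLC1, RRS1, POLR1E, NOP58 and RRP12 had no entry. The letters CACGTG, which read the same on both strands and form the E-box bound by MYC and related factors, occur in 13 of the 34 (38.2%) and in 2030 of 27305 promoters of the same length (7.43%). The ETS-type letters CCGGAAG on either strand occur in 14 members (41.2%) and in 10.7% of all promoters. The letters CCAAT occur in 14 members (41.2%) and in 35.7% of all promoters, and the GATA-type letters AGATAA in 0 members and in 10.5% of all promoters. None of these motifs contains another, and a match is a description of the letters and not a binding site. The promoters of all genes were not matched to those of the members in expression, gene type or base composition, and the part of these in the shares was not tested. The 13 members with CACGTG are FBL, NOP10, MYBBP1A, UTP4, UTP18, UTP20, WDR43, NOP14, RRP9, BYSL, LTV1, PES1 and NOP2.

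Printed next are the promoters of the members with the 3 largest changes under hemin among those that hold CACGTG, and of UTP15, the member with the largest change among those with an entry that do not. Capitals mark CACGTG. Its first letter stands 27 bases after the annotated start in MYBBP1A, 35 in NOP2 and 15 in NOP14. The windows are chr17:4555335-4555634 on the minus strand for MYBBP1A, chr12:6568242-6568541 on the minus strand for NOP2, chr4:2963357-2963656 on the minus strand for NOP14 and chr5:73565493-73565792 on the plus strand for UTP15.
MYBBP1A: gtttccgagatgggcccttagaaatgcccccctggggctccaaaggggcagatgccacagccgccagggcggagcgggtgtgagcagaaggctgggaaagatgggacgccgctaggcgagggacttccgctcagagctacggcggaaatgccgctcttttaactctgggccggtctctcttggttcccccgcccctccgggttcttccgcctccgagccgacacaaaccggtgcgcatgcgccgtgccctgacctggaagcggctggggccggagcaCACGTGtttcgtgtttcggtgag
NOP2: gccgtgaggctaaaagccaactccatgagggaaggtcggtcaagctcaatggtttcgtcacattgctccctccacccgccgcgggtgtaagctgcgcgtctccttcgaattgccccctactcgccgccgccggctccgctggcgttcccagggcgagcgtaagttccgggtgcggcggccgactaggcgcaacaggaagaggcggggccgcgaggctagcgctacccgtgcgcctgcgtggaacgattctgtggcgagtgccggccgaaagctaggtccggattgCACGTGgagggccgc
NOP14: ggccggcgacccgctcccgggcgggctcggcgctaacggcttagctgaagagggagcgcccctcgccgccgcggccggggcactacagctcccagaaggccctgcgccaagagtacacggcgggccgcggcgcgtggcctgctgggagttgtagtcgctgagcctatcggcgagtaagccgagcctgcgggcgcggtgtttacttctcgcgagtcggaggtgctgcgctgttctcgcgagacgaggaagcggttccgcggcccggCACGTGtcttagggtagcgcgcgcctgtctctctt
UTP15: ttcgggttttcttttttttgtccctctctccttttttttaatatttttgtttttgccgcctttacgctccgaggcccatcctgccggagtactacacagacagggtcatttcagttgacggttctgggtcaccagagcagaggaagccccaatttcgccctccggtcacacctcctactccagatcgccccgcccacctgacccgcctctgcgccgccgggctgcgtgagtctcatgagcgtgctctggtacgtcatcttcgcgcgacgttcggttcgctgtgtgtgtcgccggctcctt

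With CACGTG in the window, 13 of 13 members fell under nilotinib without hemin (median log2 fold change -1.15), beside 21.8% of all genes tested. Without it, 16 of 21 fell in that comparison, with a median of -1.01. Under hemin with vehicle, 10 of the 13 fell and 1 rose, with a median of -1.13, against 14 falls and 2 rises among the 21, with a median of -0.61. Of all genes tested, 27.8% fell and 25.7% rose in that comparison. The rises were 2 of the 13 without hemin DMSO replicate 1, and 1 of the 21 without mock DMSO replicate 1 or hemin DMSO replicate 2. Under nilotinib with hemin, 4 of the 13 fell and 2 rose, against 7 falls and 7 rises among the 21, beside 31.8% and 32.4% of all genes tested. Leaving out hemin nilotinib replicate 1 gave 8 falls and 1 rise among the 13 and 9 falls and 4 rises among the 21. Rises numbered 1 of the 13 without hemin DMSO replicate 1 or 3, and 4 of the 21 without hemin DMSO replicate 1. The difference between the nilotinib effects was positive for 7 of the 13 and 12 of the 21, beside 17.1% of all genes tested. The other motifs gave splits as well. Under nilotinib without hemin, 10 of 14 members with CCAAT fell (median -0.79) against 19 of 20 without it (median -1.14), and 12 of 14 with CCGGAAG (median -0.96) against 17 of 20 (median -1.08). Under hemin with vehicle, 8 of 14 with CCAAT fell (median -0.49) against 16 of 20 (median -0.95), and 9 of 14 with CCGGAAG (median -0.63) against 15 of 20 (median -0.71). No difference between members with and without a motif was tested.

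The comparison of mock nilotinib with mock DMSO asks what nilotinib did to these genes without hemin. Of the 40 members, 35 fell, beside 21.8% of all genes tested, and 1 rose, beside 20.7% of all genes tested. The median log2 fold change was -1.07 over the members and 0.00 over all genes tested. By role, 4 of 5 core subunits of the polymerase fell, 2 of 5 initiation and regulatory factors fell and 1 rose, and all 7 snoRNP proteins fell. The 3 nucleolar chaperones and GTPase, 12 of 13 small-subunit factors and all 7 large-subunit factors fell. The 4 members that neither rose nor fell were POLR1D, RRN3, TAF1B and WDR75, at -0.18, -0.35, -0.09 and -0.27. The largest fall was that of LTV1, a late small-subunit factor, at -2.25 (SE 0.32, adjusted p = 3.31e-05), and the smallest among those called was that of DKC1, at -0.40 (SE 0.14, adjusted p = 0.0321), both in edgeR (quasi-likelihood test, Benjamini-Hochberg adjustment). In each of the 6 fits that left out 1 library of these groups, 30 of the 36 calls held. The 6 others (DKC1, FBL, NOP2, UTP3, UTP15 and UTP20) were lost in at least 1 such fit, and the number that fell ranged from 30 to 34.

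The comparison of hemin DMSO with mock DMSO asks what hemin did without the inhibitor. Of the 40 members, 28 fell, beside 27.8% of all genes tested, and 4 rose, beside 25.7%. The median was -0.68 over the members and -0.05 over all genes tested. The 4 that rose were RRN3, NOP58, NHP2 and NOP2. By role, 4 of 5 core subunits, 3 of 5 initiation and regulatory factors, 11 of 13 small-subunit factors and 6 of 7 large-subunit factors fell. Of the 7 snoRNP proteins, 2 fell (DKC1 and GAR1) and 2 rose (NOP58 and NHP2), near the shares of all genes tested. The 8 members that neither rose nor fell were NPM1 at -0.07, NOP56 at -0.08, UTP3 at -0.15, NOP10 at 0.17, RRP12 at -0.19, FBL at 0.23, POLR1D at -0.32 and TAF1D at -0.35. In each of the 6 fits that left out 1 library of these groups, 26 of the 32 calls held, and BOP1, NHP2, POLR1C, UTP4, UTP18 and WDR43 were lost in at least 1.

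The comparison of hemin nilotinib with hemin DMSO asks what the inhibitor did in cells that received hemin. Of the 40 members, 10 rose, beside 32.4% of all genes tested, and 13 fell, beside 31.8%, shares near those of all genes in the fit of all 12 libraries. The median was -0.32 over the members and 0.02 over all genes tested. The 10 that rose were POLR1A, UBTF, TAF1B, MYBBP1A, DKC1, GAR1, UTP15, BYSL, RRP1 and RRS1. Falls came in the box C/D proteins NOP58 and FBL, the box H/ACA proteins NHP2 and NOP10, the chaperone NPM1, the GTPase GNL3, the initiation factor RRN3, the subunits POLR1C and POLR1D, the small-subunit factors NOB1, RRP12 and WDR43, and NOP2. Without hemin nilotinib replicate 1, 5 members rose and 21 fell, with a median of -0.56. Over the 21850 genes tested in that fit, 6944 rose and 6884 fell, so the members' counts were then not near the shares of all genes. UBTF, TAF1B, UTP15, BYSL and RRP1 kept their rise, and POLR1A, MYBBP1A, GAR1, DKC1 and RRS1 lost it. POLR1D lost its fall, and BOP1, LTV1, NOLC1, NOP16, NOP56, RRP9, UTP4, UTP18 and WDR12 gained one. There were 12 rises and 11 falls, with a median of -0.10, without hemin nilotinib replicate 3, and 6 rises without hemin DMSO replicate 1. Over all genes tested, the first of these fits had 6448 rises and 6731 falls of 21598, and the second 6500 rises of 21673. In each of the 6 fits that left out 1 library of these groups, 13 of the 23 calls held, and POLR1A, POLR1C, POLR1D, TAF1B, MYBBP1A, DKC1, GAR1, GNL3, WDR43 and RRS1 were lost in at least 1.

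**Figure D2:**
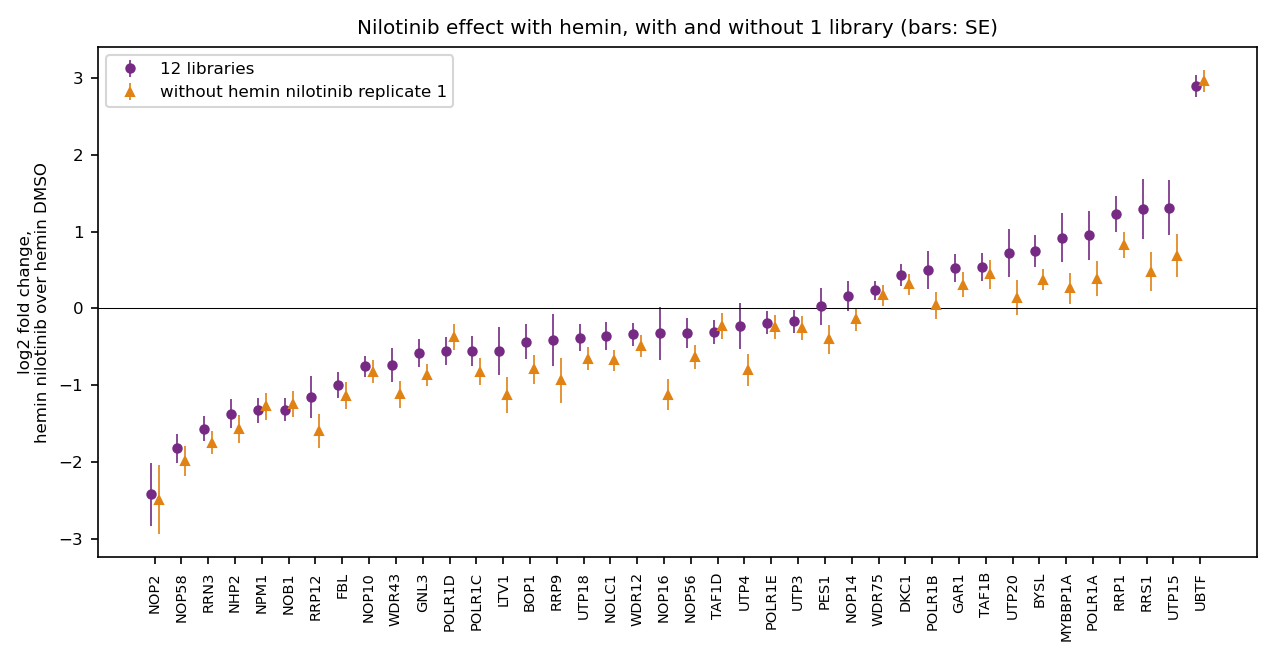
Log2 fold change of hemin nilotinib over hemin DMSO (vertical axis) for the 40 members ordered by that value (horizontal axis), from all 12 libraries (circles) and without hemin nilotinib replicate 1 (triangles), with bars of 1 SE. The triangles lie lower for most members, and UBTF is at 2.89 and 2.95.

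The comparison of hemin nilotinib with mock nilotinib asks what hemin did in cells that received nilotinib. Of the 40 members, 2 fell, beside 2.28% of all genes tested, and 0 rose, beside 3.52%. The count of 0 is by edgeR's quasi-likelihood test, with 2 members (NOP58 and POLR1C) higher at an unadjusted p under 0.05, and DESeq2 gave 0 as well. The median was 0.16 over the members and 0.03 over all genes tested. The 2 that fell were POLR1D and NOB1. Without hemin nilotinib replicate 1, 5 fell, with MYBBP1A at -0.72, POLR1E at -0.49 and UTP18 at -0.46 added, and the median was -0.17. Falls over all genes tested also increased in that fit, to 1027 of 21850 from 475 of 20821. The median was 0.33 without hemin nilotinib replicate 3, 0.27 without mock nilotinib replicate 1 and 0.07 without mock nilotinib replicate 3. Leaving out mock nilotinib replicate 2 or 3, or hemin nilotinib replicate 2, left 0 falls. In those fits only 69 of 21841, 85 of 21833 and 93 of 21758 genes tested fell. Leaving out hemin nilotinib replicate 3 gave 1 fall and 1 rise, of NOP58, at 0.71. That fit had 423 falls and 411 rises over 21598 genes tested.

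The last comparison tests whether the effect of nilotinib differed with and without hemin, as the effect with hemin minus the effect without it. The difference was positive for 21 of the 40 members, beside 17.1% of all genes tested, and negative for 2, beside 13.0%. The median difference was 0.85 over the members and 0.06 over all genes tested. It was positive for 7 of 13 small-subunit factors, 5 of 7 large-subunit factors, 3 of 5 core subunits, GNL3 and NOLC1, DKC1 and GAR1, and UBTF and MYBBP1A, and it was negative for RRN3 and NOP58. Without hemin nilotinib replicate 1, it was positive for 19, without RRP9 and WDR75, and negative for 3, NHP2 added, and the median was 0.56. In that fit the differences of NOLC1, UTP20, LTV1 and NOP16 were 0.61, 0.99, 1.13 and 0.76 and still passed the test, against 0.92, 1.57, 1.70 and 1.55 with all libraries. Over the 12 fits that left out 1 library, NOP58 lost its call in 10, WDR75 in 8, RRP9 in 7 and NOP16 in 3. This comparison uses the same control groups as the others, so the counts are not independent of each other.

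**Figure D3:**
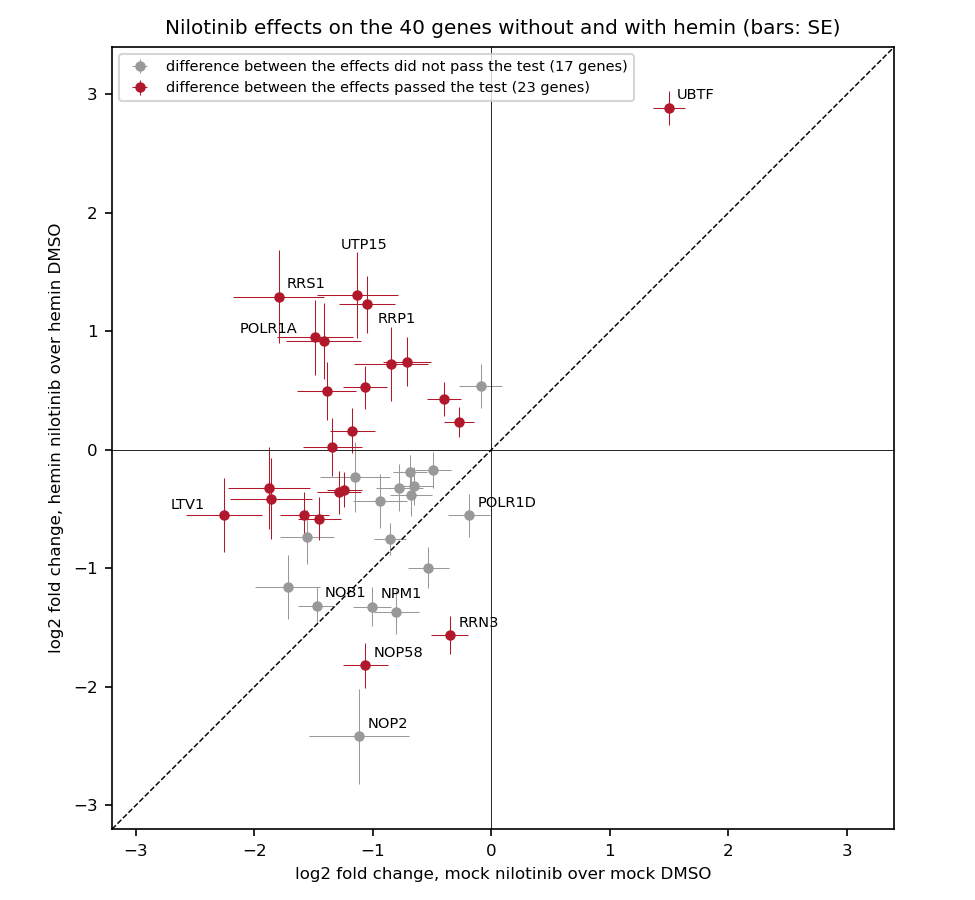
Log2 fold change under nilotinib with hemin (vertical axis) against that without hemin (horizontal axis) for the 40 members, with bars of 1 SE. The dashed line marks equal effects, and red points are the 23 members for which the difference passed the test, 21 above the line and 2 (RRN3 and NOP58) below it.

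Scaling sets the zero point of these values. Without composition factors the median of all genes tested moved to 0.20 in nilotinib with hemin, to -0.29 in hemin without nilotinib and to 0.27 in the difference, and upper-quartile factors moved it to 0.11 in nilotinib without hemin. The members' median minus that of all genes tested was -0.34 with TMM and -0.35 without composition factors in nilotinib with hemin, -0.63 with both in hemin without nilotinib, and 0.79 and 0.78 in the difference. Of the genes called under hemin without nilotinib, 48.1% were higher with TMM and 33.9% without composition factors. In the difference, the share was 56.7% with TMM, 73.3% without composition factors and 46.3% with upper-quartile factors, and in hemin with nilotinib 60.7% and 49.2% without composition factors.

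Among the core subunits of polymerase I, POLR1A (ENSG00000068654, chr2:86020216-86106155) is the largest and catalytic. Its level was 99.96, 116 and 123 CPM in mock DMSO, 59.1, 35.8 and 25.9 in mock nilotinib, 31.8, 23.2 and 29.3 in hemin DMSO, and 90.2, 39.1 and 33.8 in hemin nilotinib. All 3 mock DMSO libraries were above every other library, and hemin nilotinib replicate 1, at 90.2 CPM, stood far above the other 2 of its group. The log2 fold change of POLR1A in edgeR (quasi-likelihood test, Benjamini-Hochberg adjustment) was -1.49 under nilotinib without hemin (SE 0.32, adjusted p = 0.00126), -2.01 under hemin with vehicle (SE 0.32, adjusted p = 8.04e-05), 0.95 under nilotinib with hemin (SE 0.32, adjusted p = 0.0149) and 2.44 in the difference between the nilotinib effects (SE 0.45, adjusted p = 0.000916). Without hemin nilotinib replicate 1 the rise under nilotinib with hemin was 0.39, with an adjusted p of 0.149 in edgeR (quasi-likelihood test, Benjamini-Hochberg adjustment), and without hemin DMSO replicate 2 it was 0.83, with an adjusted p of 0.0677. The difference without hemin nilotinib replicate 1 was 1.88.

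POLR1B, the other large catalytic subunit, fell under nilotinib without hemin by 1.39 and under hemin with vehicle by 1.79, and its difference was 1.89. POLR1C, a subunit shared with RNA polymerase III, fell under nilotinib by 1.58 without hemin and by 0.55 with it, and under hemin by 0.52. Its fall with hemin was lost without hemin DMSO replicate 1 or 3 (-0.54 and -0.46) or hemin nilotinib replicate 2 or 3 (-0.39 and -0.44). Its fall under hemin with vehicle was lost without mock DMSO replicate 2 or 3 (-0.54 and -0.47) or hemin DMSO replicate 1 or 2 (-0.53 and -0.41). POLR1E, a polymerase I subunit of the initiation step, fell by 0.69 under nilotinib without hemin and by 0.93 under hemin with vehicle.

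POLR1D (ENSG00000186184, chr13:27620742-27744237), also shared with polymerase III, was apart from the other core subunits. Its level was 84.0, 92.9 and 98.3 CPM in mock DMSO, 58.7, 91.6 and 91.9 in mock nilotinib, 67.9, 80.5 and 71.9 in hemin DMSO, and 38.0, 57.2 and 55.0 in hemin nilotinib. In both nilotinib groups replicate 1 was the lowest library, the reverse of most members, and the hemin nilotinib libraries were below every library of the other groups, with mock nilotinib replicate 1 the nearest. For POLR1D, edgeR (quasi-likelihood test, Benjamini-Hochberg adjustment) gave a log2 fold change of -0.18 under nilotinib without hemin (SE 0.18, adjusted p = 0.426), -0.55 under nilotinib with hemin (SE 0.18, adjusted p = 0.0127) and -0.69 under hemin with nilotinib (SE 0.18, adjusted p = 0.0345). The fall in hemin with nilotinib was lost without mock nilotinib replicate 2 (-0.61) or 3 (-0.61) or hemin nilotinib replicate 2 (-0.82), and that under nilotinib with hemin without hemin nilotinib replicate 1 (-0.38).

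Among initiation and regulatory factors, UBTF (ENSG00000108312, chr17:44205033-44221626), the factor that coats and bends the ribosomal genes for the polymerase, was the only member that rose under nilotinib without hemin. Its level was 129, 171 and 170.2 CPM in mock DMSO, 444, 457 and 424 in mock nilotinib, 57.8, 55.9 and 58.6 in hemin DMSO, and 392, 421 and 461 in hemin nilotinib. All 6 nilotinib libraries were above all 6 vehicle libraries, and the 3 hemin DMSO libraries were the lowest. UBTF had, by edgeR (quasi-likelihood test, Benjamini-Hochberg adjustment), log2 fold changes of 1.498 under nilotinib without hemin (SE 0.13, adjusted p = 2.54e-07), 2.89 under nilotinib with hemin (SE 0.14, adjusted p = 1.77e-10), -1.45 under hemin with vehicle (SE 0.13, adjusted p = 3.62e-07), -0.06 under hemin with nilotinib (SE 0.13, adjusted p = 0.844) and 1.39 in the difference between the nilotinib effects (SE 0.19, adjusted p = 7.79e-05). No fit that left out 1 library ended any of its 4 calls, and the 2 nilotinib groups overlapped each other.

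RRN3 (ENSG00000085721, chr16:15060022-15094317), which joins the polymerase to the promoter and responds to growth signals, moved the other way under hemin. Its level was 34.6, 34.2 and 37.3 CPM in mock DMSO, 30.4, 27.2 and 25.6 in mock nilotinib, 69.5, 82.99 and 67.1 in hemin DMSO, and 31.1, 23.7 and 19.6 in hemin nilotinib. The 3 hemin DMSO libraries were above all 9 others, and the nilotinib groups overlapped each other. The log2 fold change of RRN3 in edgeR (quasi-likelihood test, Benjamini-Hochberg adjustment) was -0.35 under nilotinib without hemin (SE 0.16, adjusted p = 0.0835), -1.56 under nilotinib with hemin (SE 0.16, adjusted p = 4.24e-07), 1.05 under hemin with vehicle (SE 0.16, adjusted p = 4.06e-05) and -1.21 in the difference between the nilotinib effects (SE 0.22, adjusted p = 0.000895). Over the fits that left out 1 library, the difference ran from -1.39 to -1.02, and shared words with AC009093.9 make its counts uncertain in part.

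MYBBP1A (ENSG00000132382, chr17:4538897-4555631), a nucleolar MYB-binding protein that takes part in precursor RNA processing, holds the CACGTG printed above. Its level was 61.9, 67.5 and 74.1 CPM in mock DMSO, 33.5, 23.0 and 19.8 in mock nilotinib, 11.8, 16.1 and 11.1 in hemin DMSO, and 42.9, 16.1 and 14.8 in hemin nilotinib. Mock DMSO was above all other libraries, hemin nilotinib replicate 1 stood at 42.9 CPM against 16.1 and 14.8, and hemin DMSO and hemin nilotinib overlapped. For MYBBP1A, edgeR (quasi-likelihood test, Benjamini-Hochberg adjustment) gave a log2 fold change of -1.42 under nilotinib without hemin (SE 0.31, adjusted p = 0.00173), -2.38 under hemin with vehicle (SE 0.33, adjusted p = 1.76e-05), 0.92 under nilotinib with hemin (SE 0.32, adjusted p = 0.0184) and 2.33 in the difference between the nilotinib effects (SE 0.45, adjusted p = 0.00123). The rise under nilotinib with hemin was lost without hemin nilotinib replicate 1 (0.26) and without hemin DMSO replicate 1 (0.85) or 3 (0.81), while the difference without hemin nilotinib replicate 1 was 1.68.

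TAF1B and TAF1D are subunits of the promoter selectivity complex SL1. TAF1B fell under hemin with vehicle by 0.73 and rose under nilotinib with hemin by 0.54, a rise lost without hemin DMSO replicate 1 (0.43) or hemin nilotinib replicate 2 (0.48). TAF1D fell under nilotinib without hemin by 0.65, with values of -0.31 under nilotinib with hemin, -0.35 under hemin with vehicle and 0.00 under hemin with nilotinib. With a replicate block in the fit, TAF1D also fell under nilotinib with hemin (-0.31) and under hemin with vehicle (-0.34).

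**Figure D4:**
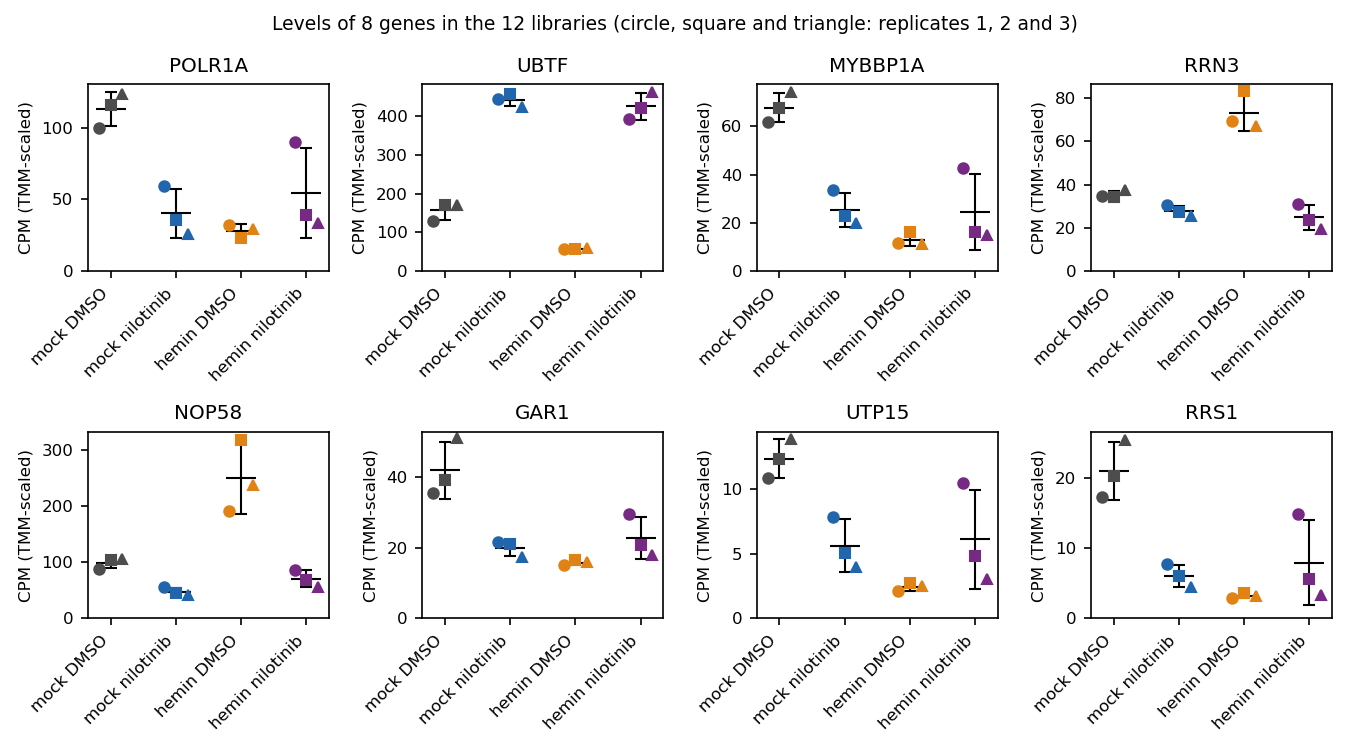
TMM-scaled CPM (vertical axis, from 0) of 8 members in the 4 groups (horizontal axis), with replicates 1, 2 and 3 as circle, square and triangle, and the mean with 1 SD as bars. UBTF is high in both nilotinib groups, RRN3 and NOP58 are high in hemin DMSO, and POLR1A, MYBBP1A, UTP15 and RRS1 are highest in mock DMSO with 1 high circle in hemin nilotinib.

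NOP58 (ENSG00000055044, chr2:202265716-202303666), a core protein of box C/D snoRNPs, holds 4 small nucleolar RNA genes. Its level was 87.9, 104 and 105 CPM in mock DMSO, 55.3, 45.4 and 41.2 in mock nilotinib, 192, 319 and 238 in hemin DMSO, and 87.0, 68.7 and 56.7 in hemin nilotinib. The hemin DMSO libraries were above all 9 others, with replicate 2 the highest, and the mock nilotinib libraries were below all 9 others. NOP58 had, by edgeR (quasi-likelihood test, Benjamini-Hochberg adjustment), log2 fold changes of -1.06 under nilotinib without hemin (SE 0.19, adjusted p = 0.000273), 1.34 under hemin with vehicle (SE 0.19, adjusted p = 2.39e-05), -1.82 under nilotinib with hemin (SE 0.19, adjusted p = 6.07e-07) and -0.76 in the difference between the nilotinib effects (SE 0.26, adjusted p = 0.0401). The difference was lost without any 1 of 10 libraries, with values from -0.55 to -0.81 in those fits, and it was kept without hemin DMSO replicate 1 or hemin nilotinib replicate 1 (-0.92).

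Of the other box C/D proteins, FBL, the methyltransferase of the particle, fell under nilotinib by 0.53 without hemin and by 0.996 with it, and its value under hemin with vehicle was 0.23. That value was 0.41 and passed the threshold without hemin DMSO replicate 1, and was 0.01 without hemin DMSO replicate 2. Its fall without hemin was lost without mock DMSO replicate 2 (-0.53) or 3 (-0.52) or mock nilotinib replicate 1 (-0.50). NOP56, which pairs with NOP58, fell under nilotinib without hemin by 0.77, with a value of -0.32 with hemin that was -0.64 and passed the threshold without hemin nilotinib replicate 1 and was -0.12 without hemin nilotinib replicate 3.

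Among the box H/ACA proteins, NHP2 (ENSG00000145912, chr5:178149460-178153967), a core RNA-binding protein, rose under hemin. Its level was 38.5, 37.6 and 41.5 CPM in mock DMSO, 25.0, 21.6 and 20.8 in mock nilotinib, 50.3, 79.1 and 52.7 in hemin DMSO, and 30.04, 21.5 and 19.0 in hemin nilotinib. The hemin DMSO libraries were above all 9 others, and the mock DMSO libraries above all 6 nilotinib libraries. The log2 fold change of NHP2 in edgeR (quasi-likelihood test, Benjamini-Hochberg adjustment) was -0.80 under nilotinib without hemin (SE 0.19, adjusted p = 0.00252), 0.63 under hemin with vehicle (SE 0.19, adjusted p = 0.00902), -1.37 under nilotinib with hemin (SE 0.19, adjusted p = 1.08e-05) and -0.57 in the difference between the nilotinib effects (SE 0.26, adjusted p = 0.115). The rise under hemin was lost without hemin DMSO replicate 2 (0.40) or mock DMSO replicate 1 (0.55), and 27.4% of its exon length lies opposite RMND5B.

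GAR1 (ENSG00000109534, chr4:109815510-109824740), which joins the same particle late, went the other way. Its level was 35.3, 39.0 and 50.9 CPM in mock DMSO, 21.5, 20.9 and 17.3 in mock nilotinib, 15.1, 16.4 and 15.8 in hemin DMSO, and 29.4, 20.7 and 18.02 in hemin nilotinib. Mock DMSO was above all other libraries and hemin DMSO was below all other libraries. For GAR1, edgeR (quasi-likelihood test, Benjamini-Hochberg adjustment) gave a log2 fold change of -1.07 under nilotinib without hemin (SE 0.18, adjusted p = 0.000207), -1.41 under hemin with vehicle (SE 0.19, adjusted p = 1.25e-05), 0.53 under nilotinib with hemin (SE 0.18, adjusted p = 0.0199) and 1.59 in the difference between the nilotinib effects (SE 0.26, adjusted p = 0.000361). The rise under nilotinib with hemin was lost without hemin nilotinib replicate 1 (0.31) or hemin DMSO replicate 1 (0.50) or 3 (0.52).

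DKC1, the pseudouridine synthase of the particle, fell under hemin with vehicle by 0.67 and under nilotinib without hemin by 0.40, a fall lost without mock DMSO replicate 2 or 3 (-0.41 and -0.37) or any mock nilotinib library (-0.42, -0.44 and -0.39). Its rise of 0.43 under nilotinib with hemin was lost without hemin nilotinib replicate 1 (0.31) or hemin DMSO replicate 1 (0.33). NOP10, the smallest protein of the particle, fell under nilotinib by 0.85 without hemin and by 0.75 with it.

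Of the nucleolar chaperones and the GTPase, GNL3 (ENSG00000163938, chr3:52681156-52694492), the GTPase nucleostemin, had the largest fall. Its level was 74.3, 77.5 and 89.2 CPM in mock DMSO, 30.1, 28.8 and 29.3 in mock nilotinib, 56.8, 46.3 and 54.6 in hemin DMSO, and 48.3, 31.4 and 25.9 in hemin nilotinib. The 3 mock nilotinib libraries lay close together, far below the 3 mock DMSO libraries, and hemin DMSO overlapped hemin nilotinib only through hemin nilotinib replicate 1. GNL3 had, by edgeR (quasi-likelihood test, Benjamini-Hochberg adjustment), log2 fold changes of -1.45 under nilotinib without hemin (SE 0.18, adjusted p = 9.59e-06), -0.61 under hemin with vehicle (SE 0.18, adjusted p = 0.00883), -0.58 under nilotinib with hemin (SE 0.18, adjusted p = 0.0101) and 0.87 in the difference between the nilotinib effects (SE 0.25, adjusted p = 0.0168). The fall under nilotinib with hemin was lost without hemin nilotinib replicate 2 (-0.50) or 3 (-0.38). NPM1, the most abundant member per length and a histone and ribosome chaperone, fell under nilotinib by 1.01 without hemin and by 1.32 with it, and its value under hemin with vehicle was -0.07. NOLC1, a chaperone of snoRNPs, fell under nilotinib without hemin by 1.28 and under hemin with vehicle by 0.67, with a difference of 0.92 that was 0.61 without hemin nilotinib replicate 1.

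In the small-subunit group, UTP15 (ENSG00000164338, chr5:73565443-73583377), a member of the UTP complex that binds the nascent precursor, had the largest change. Its level was 10.9, 12.3 and 13.8 CPM in mock DMSO, 7.86, 5.08 and 3.95 in mock nilotinib, 2.11, 2.71 and 2.54 in hemin DMSO, and 10.4, 4.80 and 3.06 in hemin nilotinib. Every mock DMSO library was above every other library, hemin DMSO was below all 9 others, and hemin nilotinib replicate 1 approached mock DMSO. The log2 fold change of UTP15 in edgeR (quasi-likelihood test, Benjamini-Hochberg adjustment) was -1.13 under nilotinib without hemin (SE 0.34, adjusted p = 0.0141), -2.33 under hemin with vehicle (SE 0.36, adjusted p = 6.02e-05), 1.31 under nilotinib with hemin (SE 0.36, adjusted p = 0.00467) and 2.44 in the difference between the nilotinib effects (SE 0.50, adjusted p = 0.00191). The fall under nilotinib without hemin was lost without mock nilotinib replicate 3 (-0.96). The rise with hemin was 0.69 without hemin nilotinib replicate 1, and the difference was then 1.82.

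NOB1 (ENSG00000141101, chr16:69741867-69754940), the endonuclease that makes the last cut of the small-subunit RNA, fell in all 4 pairwise comparisons. Its level was 96.4, 110.3 and 111 CPM in mock DMSO, 28.4, 44.3 and 41.9 in mock nilotinib, 62.8, 67.3 and 60.03 in hemin DMSO, and 23.2, 28.0 and 25.2 in hemin nilotinib. Mock DMSO was highest, then hemin DMSO, then mock nilotinib, then hemin nilotinib, and no neighbours in that order overlapped. For NOB1, edgeR (quasi-likelihood test, Benjamini-Hochberg adjustment) gave a log2 fold change of -1.47 under nilotinib without hemin (SE 0.15, adjusted p = 1.36e-06), -1.31 under nilotinib with hemin (SE 0.16, adjusted p = 2.03e-06), -0.74 under hemin with vehicle (SE 0.15, adjusted p = 0.000667) and -0.58 under hemin with nilotinib (SE 0.15, adjusted p = 0.0365). The fall in hemin with nilotinib was lost without mock nilotinib replicate 2 (-0.49) or 3 (-0.54) or hemin nilotinib replicate 2 (-0.68) or 3 (-0.58), and 20.3% of its exon length lies opposite AC092115.3.

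LTV1, an export and maturation factor of the small subunit, had 18.3, 19.7 and 22.3 CPM in mock DMSO and 5.63, 3.85 and 3.14 CPM in mock nilotinib. RRP9, a protein of the U3 snoRNP, fell under nilotinib without hemin by 1.86 and under hemin by 1.19, with a difference of 1.45 that was lost in 7 of the 12 fits that left out 1 library, at 0.93 to 1.45. RRP12, a factor of subunit export, fell under nilotinib by 1.72 without hemin and by 1.15 with it, and its value under hemin with vehicle was -0.19. NOP14 and UTP20, both parts of the early small-subunit particle, fell under hemin with vehicle by 1.36 and 1.15. BYSL, a late factor of the small subunit, fell under nilotinib without hemin by 0.71 and rose with hemin by 0.74, a rise that was 0.38 without hemin nilotinib replicate 1. Among the rest of the group, fold changes under nilotinib without hemin were -0.49 for UTP3, -1.15 for UTP4, -0.68 for UTP18, -1.55 for WDR43 and -0.27 for WDR75. Of these, the fall of UTP3 was lost without mock DMSO replicate 3 (-0.46). The fall of WDR43 under nilotinib with hemin, by 0.73, was lost without hemin nilotinib replicate 2 (-0.63) and was -1.12 without hemin nilotinib replicate 1. Its fall under hemin with vehicle, by 0.68, was lost without hemin DMSO replicate 3 (-0.60).

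Of the large-subunit factors, RRS1 (ENSG00000179041, chr8:66429028-66430733), an assembly factor of that subunit, had the largest difference of all 40 members. Its level was 17.3, 20.2 and 25.4 CPM in mock DMSO, 7.66, 6.01 and 4.41 in mock nilotinib, 2.85, 3.57 and 3.25 in hemin DMSO, and 14.9, 5.57 and 3.37 in hemin nilotinib. Mock DMSO was above all other libraries, and hemin nilotinib replicate 1 stood at 14.9 CPM against 5.57 and 3.37. Hemin DMSO and hemin nilotinib overlapped through hemin nilotinib replicate 3. RRS1 had, by edgeR (quasi-likelihood test, Benjamini-Hochberg adjustment), log2 fold changes of -1.79 under nilotinib without hemin (SE 0.38, adjusted p = 0.00125), -2.70 under hemin with vehicle (SE 0.40, adjusted p = 3.78e-05), 1.29 under nilotinib with hemin (SE 0.39, adjusted p = 0.00865) and 3.09 in the difference between the nilotinib effects (SE 0.55, adjusted p = 0.000698). Without hemin nilotinib replicate 1 the rise under nilotinib with hemin was lost (0.48), and the difference was 2.28.

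NOP2 (ENSG00000111641, chr12:6556863-6568691), a methyltransferase of large-subunit RNA, had the lowest mean level per length of the 40 in every group but hemin DMSO, where UTP15 was lower, and rose under hemin with vehicle. Its level was 1.15, 0.596 and 1.44 CPM in mock DMSO, 0.710, 0.496 and 0.259 in mock nilotinib, 2.67, 3.41 and 4.69 in hemin DMSO, and 0.747, 0.439 and 0.818 in hemin nilotinib. The 3 hemin DMSO libraries were above all 9 others, and the mock groups overlapped. The log2 fold change of NOP2 in edgeR (quasi-likelihood test, Benjamini-Hochberg adjustment) was -1.11 under nilotinib without hemin (SE 0.42, adjusted p = 0.0418), 1.75 under hemin with vehicle (SE 0.38, adjusted p = 0.00115), -2.42 under nilotinib with hemin (SE 0.40, adjusted p = 7.44e-05) and -1.30 in the difference between the nilotinib effects (SE 0.58, adjusted p = 0.101). The fall under nilotinib without hemin was lost without mock DMSO replicate 1 (-1.10) or 3 (-0.86) or mock nilotinib replicate 2 (-1.15) or 3 (-0.84). Its overlap with AC006064.6, which had at most 0.127 CPM, leaves its level uncertain.

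RRP1, a large-subunit processing factor, fell by 1.05 under nilotinib without hemin and by 1.93 under hemin with vehicle, and rose by 1.23 under nilotinib with hemin, with a difference of 2.28. Its rise was 0.82 without hemin nilotinib replicate 1 and remained past the threshold. BOP1, PES1 and WDR12 form the PeBoW complex of large-subunit assembly, and all 3 fell under nilotinib without hemin, by 0.94, 1.34 and 1.24. Under hemin with vehicle they fell by 0.59, 1.13 and 0.60, and the fall of BOP1 was lost without mock DMSO replicate 2 or 3 (-0.59 and -0.58) or hemin DMSO replicate 1 or 3 (-0.47 and -0.46). NOP16, a factor of the same subunit, fell by 1.87 and 1.22 in those comparisons, with a difference of 1.55 that was lost without hemin DMSO replicate 1 (1.44) or 3 (1.52) or mock nilotinib replicate 3 (1.48) and was 0.76 without hemin nilotinib replicate 1.

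Genes of the same pathway outside the 40 were counted from lists of their own. Of all genes tested, 21.8% fell and 20.7% rose under nilotinib without hemin, 27.8% fell and 25.7% rose under hemin with vehicle, and 31.8% fell and 32.4% rose under nilotinib with hemin. Of 38 other small-subunit factors, 29 fell and 0 rose under nilotinib without hemin by edgeR's test, and 18 fell and 9 rose under hemin with vehicle. Of 49 other large-subunit factors, 40 fell and 0 rose under nilotinib without hemin, and 29 fell and 6 rose under hemin with vehicle. At an unadjusted p under 0.05 the rises under nilotinib without hemin were 0 of the 38 and 1 of the 49 in edgeR, and DESeq2 gave 0 rises in both lists at its adjusted p. The largest of these falls under nilotinib without hemin were those of DDX21, a nucleolar helicase, at -2.17, and PNO1, a late small-subunit factor, at -1.90. Under nilotinib with hemin, 7 of the 38 rose and 17 fell, and 7 of the 49 rose and 18 fell (36.7%), the last near the share of all genes. Leaving out hemin nilotinib replicate 1 gave 6 rises and 22 falls among the 38 and 1 rise and 23 falls among the 49. Rises among the 49 numbered 4 without hemin DMSO replicate 1 or 2, and 2 without hemin DMSO replicate 3. In that comparison RIOK2, a kinase of the late small subunit, was at -2.81 and RCL1, a small-subunit processing factor, at 1.93.

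Of 12 other polymerase I genes, 5 fell and 0 rose under nilotinib without hemin, beside 21.8% and 20.7% of all genes tested. CD3EAP, a polymerase I subunit, had the largest fall, at -1.35. It fell under hemin with vehicle by 2.16 and rose under nilotinib with hemin by 1.27, or by 0.83 without hemin nilotinib replicate 1. Under hemin with vehicle 4 of the 12 rose (33.3%, beside 25.7% of all genes tested) and 3 fell (25.0%, beside 27.8%), with a median of 0.34. Under nilotinib with hemin 2 rose (16.7%, beside 32.4%) and 5 fell (41.7%, beside 31.8%), with a median of -0.29, and without hemin nilotinib replicate 1, 2 rose and 8 fell, with a median of -0.55. Of 12 other snoRNP and assembly genes, 9 fell and 0 rose under nilotinib without hemin, among them RUVBL2, a helicase of snoRNP assembly, at -1.37. Of 12 genes of the RNA exosome, which trims ribosomal precursors, 9 fell and 0 rose in that comparison, with EXOSC5 at -1.89. The number that fell was 5 without mock DMSO replicate 3 or mock nilotinib replicate 2. Over all genes tested, 3905 of 21819 and 3908 of 21841 fell in those fits. The counts of 0 in these 3 lists are from edgeR at an adjusted p under 0.05, and they were 0 as well at an unadjusted p under 0.05 and in DESeq2. Of 15 subunits of RNA polymerase III, which makes transfer RNA, 8 fell and 1 rose under nilotinib without hemin, beside 21.8% and 20.7% of all genes tested. POLR3G was at -2.08 and POLR3GL at 0.84, which encode alternative forms of a subunit. The number that fell was 5 without mock DMSO replicate 3, beside 3905 of 21819 genes tested.

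The 79 cytosolic ribosomal protein genes, whose products the nucleolus assembles, gave other counts. Under nilotinib without hemin 3 rose and 3 fell, with a median of 0.05, beside 20.7% and 21.8% of all genes tested. Leaving out mock DMSO replicate 1, 2 or 3 gave 0, 1 and 0 rises and 1, 1 and 0 falls, and leaving out mock nilotinib replicate 1, 2 or 3 gave 2, 0 and 0 rises and 0, 1 and 1 falls. Under hemin with vehicle 51 rose, beside 25.7% of all genes tested, and 0 fell, beside 27.8%, with a median of 0.44, and without composition factors 16 rose and 0 fell. The number that rose was 19, 30 and 29 without mock DMSO replicate 1, 2 or 3, and 29 without hemin DMSO replicate 2. Under nilotinib with hemin 64 fell, beside 31.8%, and 0 rose, beside 32.4%, with a median of -0.50, and without composition factors 42 fell and 0 rose. The number that fell was also 64 without hemin nilotinib replicate 1 and was 41 without hemin DMSO replicate 2. In the difference 41 were negative and 0 positive, with a median of -0.58, beside 21 positive and 2 negative of the 40 members and 17.1% positive and 13.0% negative of all genes tested. The number negative was 13, 21 and 21 without mock DMSO replicate 1, 2 or 3, 19 and 15 without mock nilotinib replicate 2 or 3, and 46, 20 and 26 without hemin nilotinib replicate 1, 2 or 3. The counts of 0 are from edgeR at an adjusted p under 0.05, and with all libraries the number in that direction under hemin with vehicle, under nilotinib with hemin and in the difference was also 0 at an unadjusted p under 0.05 and in DESeq2.

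**Figure D5:**
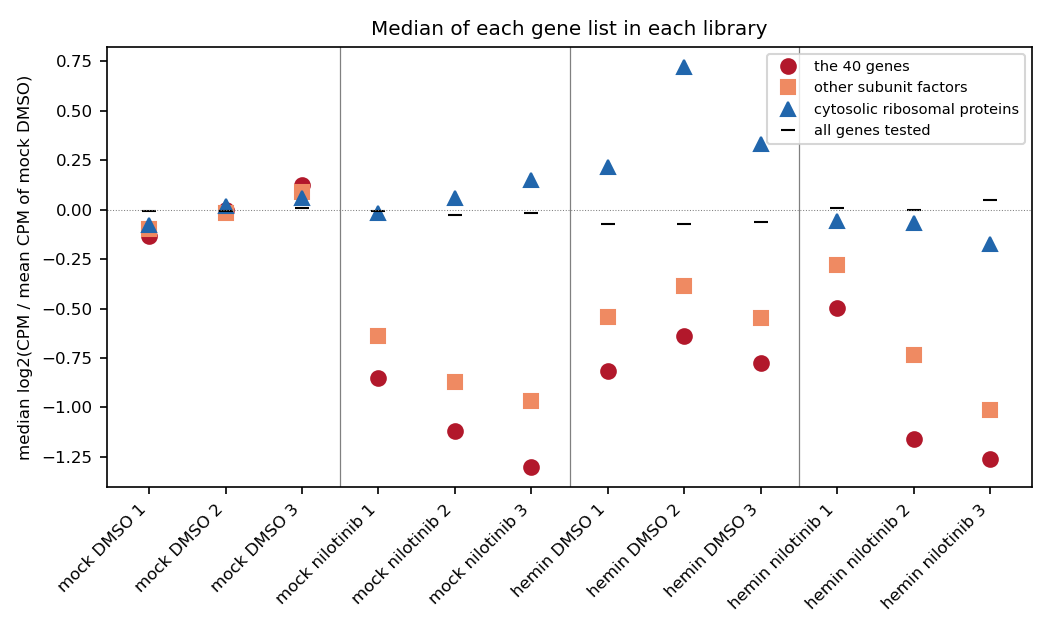
Median log2 ratio of CPM to the mean of mock DMSO (vertical axis) in the 12 libraries (horizontal axis) for the 40 members, other subunit factors, cytosolic ribosomal proteins and all genes tested. The members lie at -0.85 to -1.30 in mock nilotinib and -0.64 to -0.81 in hemin DMSO, while ribosomal proteins lie at 0.22 to 0.72 in hemin DMSO.

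Proliferation genes were counted beside the members. Of 10 such genes, 2 rose and 1 fell under nilotinib without hemin, with a median of 0.23, and 1 rose and 6 fell under hemin with vehicle, with a median of -0.66. Under nilotinib with hemin 8 rose and 0 fell in edgeR, with a median of 0.74, and 0 fell at an unadjusted p under 0.05 or in DESeq2. Again 8 rose and 0 fell without hemin nilotinib replicate 1, with a median of 0.66. Of all genes tested, 32.4% rose and 31.8% fell in that comparison, 20.7% and 21.8% under nilotinib without hemin, and 25.7% and 27.8% under hemin with vehicle. The mitochondrial share of counts was 6.02, 7.35 and 6.66% in mock DMSO, 7.60, 6.22 and 5.24% in mock nilotinib, 2.88, 1.45 and 2.86% in hemin DMSO and 8.83, 7.03 and 5.20% in hemin nilotinib. The 10 genes with the most counts took 12.04 to 13.4% of counts in the hemin DMSO libraries, against 7.29 to 10.5% in the other 9. The part of these shares in the members' fold changes was not tested.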

How the data were processed

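Each value is a raw count of reads for a gene, which the sequencing service made on GRCh38.p12 and the authors deposited unscaled. They also deposited FPKM, that is, counts divided by gene length and library scaling, used here only in 2 alternatives, and the gene length, used for levels per kilobase. The aligner, the counter and the strandedness of the libraries are not given in the sources used here.

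From the counts, R 4.3.3 with edgeR 4.0.16 kept genes by filterByExpr (minimum count 10, minimum total 15), scaled by TMM and fitted 1 mean per group over 12 libraries. P-values are two-sided, with Benjamini-Hochberg adjustment over 20821 genes. An exact permutation test of 3 against 3 libraries cannot go below p = 0.1 and was not used. The steps were tested on simulated counts. Members and lists were chosen with earlier results of these data known.

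Alternatives were DESeq2 1.42.0, RLE and upper-quartile factors, no composition factors, every gene that had a count, genes with 10 counts or more in every library, limma-trend (limma 3.58.1) on log2(FPKM + 1) and log2(FPKM + 0.1), each comparison fitted on its own libraries alone, a replicate block, and fits without 1 library. Leaving out replicate 1 of both nilotinib groups together was chosen after seeing the data. Residuals of libraries with the same replicate number were compared between groups, and for mock nilotinib and hemin nilotinib all 3 correlations exceeded 0.1 (0.172 to 0.233).

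Values in every library are printed, per role, for the members with the largest rise and fall past the threshold under nilotinib without hemin, nilotinib with hemin or hemin with vehicle, for the 3 largest differences in each direction, and for members past the threshold under hemin with nilotinib. Other members named were chosen after their values were seen. Python 3.11.15 searched promoters and compared transcripts of GENCODE 29, which held all 58735 identifiers.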

Additional observations from a re-analysis of the deposited data

Results flagged for a closer look

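The effect of nilotinib on 23 of the 40 members differed with and without hemin by a test of the difference itself, given here as the log2 effect with hemin minus the log2 effect without it. It was positive for 21, beside 17.1% of all genes tested, and negative for 2, beside 13.0%. For polymerase I subunits it was 2.44 for POLR1A, 1.89 for POLR1B and 1.02 for POLR1C. For initiation and regulatory factors it was 1.39 for UBTF, 2.33 for MYBBP1A and -1.21 for RRN3. For snoRNP proteins it was -0.76 for NOP58, 0.83 for DKC1 and 1.59 for GAR1, and for the chaperone NOLC1 and the GTPase GNL3 it was 0.92 and 0.87. For small-subunit factors it was 2.44 for UTP15, 1.57 for UTP20, 0.50 for WDR75, 1.34 for NOP14, 1.45 for RRP9, 1.45 for BYSL and 1.70 for LTV1. For large-subunit factors it was 1.37 for PES1, 0.91 for WDR12, 1.55 for NOP16, 2.28 for RRP1 and 3.09 for RRS1. Over the 12 fits that left out 1 library, the call was lost in 10 for NOP58, 8 for WDR75, 7 for RRP9 and 3 for NOP16. Without hemin nilotinib replicate 1 the difference was 0.61 for NOLC1, 0.99 for UTP20, 1.13 for LTV1, 0.93 for RRP9 and 0.76 for NOP16. Where 0 h is the addition of hemin, the effects of hemin and of time cannot be told apart in this difference.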

How the results depend on the processing

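Of the values of the 40 members under the alternatives, 3319 kept their side of the threshold. In 91 of these, past it in neither fit, the sign differed. Another 81 passed it, 154 fell short of it and 1 passed it with the other sign. That was PES1 under nilotinib with hemin, at -0.40 without replicate 1 of both nilotinib groups, against 0.03 in the main fit. The main value was not past the threshold, so no call reversed. Under nilotinib with hemin the number that rose was 5 with limma-trend on log2(FPKM + 1) and 5 without replicate 1 of both nilotinib groups, when 23 fell. Over all genes tested, 6337 of 20821 rose in the first of these fits. In the second, 6980 rose and 6982 fell of 21949. Under hemin with nilotinib, 1 rose when every gene that had a count was tested, beside 1244 of 40578 genes. In that comparison 0 fell with limma-trend on log2(FPKM + 1), with limma-trend on log2(FPKM + 0.1) and with the libraries compared alone. Over all genes tested, 381 of 20821, 306 of 20821 and 64 of 18573 fell in those fits. In the difference, 1 was negative without composition factors. The cause was not tested.

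Leaving out 1 library at a time, nilotinib without hemin gave 1 to 1 rises and 30 to 34 falls, nilotinib with hemin 5 to 12 rises and 10 to 21 falls, and hemin without nilotinib 3 to 5 rises and 24 to 29 falls. Hemin with nilotinib gave 0 to 1 rises and 0 to 5 falls, and the difference 18 to 26 positive and 1 to 3 negative. Over all genes tested, falls in hemin with nilotinib ran from 69 of 21841 to 1027 of 21850 in those fits. With a replicate block, 10 members rose and 16 fell under nilotinib with hemin (TAF1D, UTP18 and WDR12 gained), 4 rose and 30 fell under hemin without nilotinib (POLR1D and TAF1D gained), and the difference was positive for 23 (POLR1E and WDR43 gained) and negative for 2. At the smallest total of 33457078 counts, 3 counts are 0.0875 CPM, and the highest such value was 0.0957 CPM, in hemin DMSO replicate 2. Depth limits NOP2 most among the members in every group but hemin DMSO. There UTP15 and RRS1 had lower mean levels, at 2.45 and 3.22 CPM against 3.59 for NOP2.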
